A study of Mus musculus with 6 samples.

Results

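The genes described are 10 components of bone morphogenetic protein (BMP) signalling in mouse embryonic stem (ES) cells: the ligand gene Bmp4, the receptor genes Bmpr1a and Bmpr2, the SMAD genes Smad1, Smad5 and Smad6, and the inhibitor-of-differentiation genes Id1, Id2, Id3 and Id4. They were found by their symbols among the 23420 genes of the deposited count table. All 10 were present, and all 10 passed the filter on low counts. Levels were measured by RNA sequencing in 2 groups of 3 libraries each: ES cells that carried a stable lentiviral KBP(KK/RR) construct (replicates 4, 5 and 6) and ES cells that carried a wild-type KBP construct in the same kind of virus (replicates 1, 2 and 3). Both groups were kept under conditions for self-renewal, and both received KBP from a virus. KBP (Kif1-binding protein) is a partner of kinesin motors, and the labels call KBP(KK/RR) a stable mutant of it. The labels do not name the ES cell line, say how many transduced clones or pools were used, or say that the 3 libraries of a group came from separate cultures, so p-values measure the spread between these libraries, which may be technical.

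BMP ligands bind pairs of type I and type II receptor kinases at the cell surface. The type I receptor then phosphorylates SMAD1 and SMAD5, which enter the nucleus with SMAD4 and switch on targets, among them the Id genes and the inhibitory SMAD genes. ID proteins have a helix-loop-helix domain but no DNA-binding region, and they hold E proteins and other basic helix-loop-helix factors away from DNA. In mouse ES cells, BMP acting through Id genes is known to hold back neural differentiation alongside the cytokine LIF.

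Total counts ran from 24300832 to 29863560 in the KBP(KK/RR) libraries and from 24131743 to 32160411 in the wild-type KBP libraries. The KBP gene (2510003E04Rik in the count table) measured 56.3, 59.6 and 53.9 CPM (counts scaled to the size of the library) in KBP(KK/RR) cells, against 48.3, 47.0 and 49.6 CPM in wild-type KBP cells, and these counts pool transcripts of the cells' own gene with any from the virus. With a log2 fold change of 0.23 (SE 0.05, edgeR adjusted p = 0.0133), the KBP gene was itself called higher in KBP(KK/RR) cells, so the groups differed in the level of KBP transcripts as well as in the form of KBP. The ES cell genes Pou5f1, Nanog and Sox2 were abundant in both groups, with means of 1435, 334 and 400 CPM in KBP(KK/RR) cells and 1451, 313 and 386 CPM in wild-type KBP cells. On the second principal component of log2 CPM, which held 20.8% of the variance, wild-type KBP replicate 3 stood apart at -16.3, against 10.7 and 8.87 for the other wild-type KBP libraries. On the first, which held 31.1%, KBP(KK/RR) replicate 4 lay nearest to the wild-type KBP libraries.

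Bmp4 was lower and Id3 higher in KBP(KK/RR) cells, and the other 8 genes did not pass the test. Bmp4 fell to 0.789 of its wild-type KBP level, and Id3 rose 1.21-fold. The intracellular signal carriers Smad1 and Smad5 and the receptors Bmpr1a and Bmpr2 had log2 fold changes with 95% intervals that included 0. Thus 2 of 10 genes were called by edgeR's quasi-likelihood test at a Benjamini-Hochberg adjusted p under 0.05, where 3.12% of all 14340 tested genes were called. In each direction 1 gene was called, against 1.05% of tested genes called higher and 2.07% called lower. The 10 genes were chosen with earlier results of these data known, so these shares do not test them as a group. With upper-quartile scaling the same 2 genes were called, while the split over all genes moved to 235 higher and 205 lower, against 151 higher and 297 lower with the scaling used here. An unadjusted p under 0.05 was reached by 4 of the 10 genes, beside 18.6% of tested genes, and the groups did not overlap for 3 of the 10, beside 22.4% of tested genes. The median log2 fold change was -0.07 over the 10 genes and -0.002 over all tested genes, and the median of its absolute value was 0.11 over the 10 genes and 0.08 over all. In DESeq2 an adjusted p was computed for 8 of the 10 genes and Bmp4 was called, beside 3.1% of all genes with one.

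**Figure D1:**
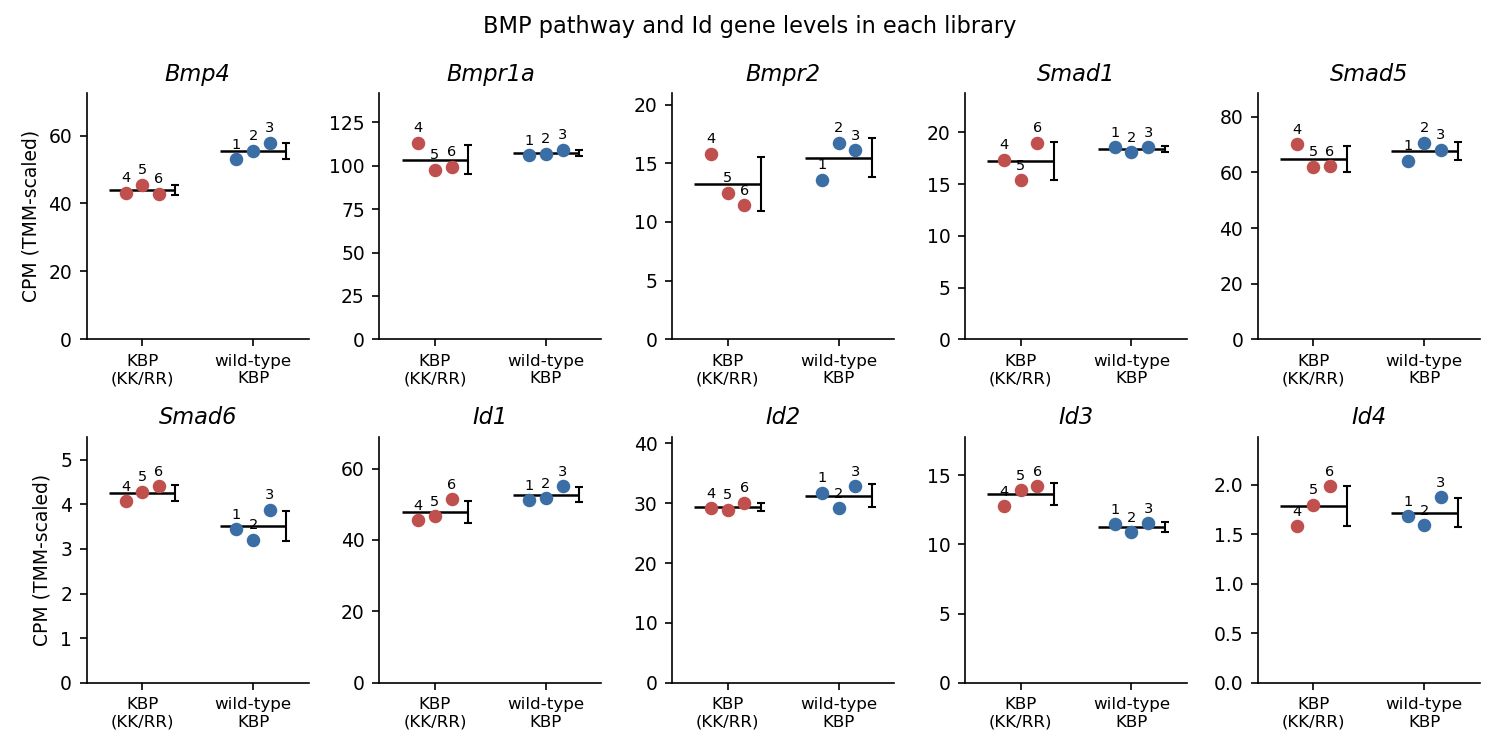
Level of each of the 10 genes in CPM (y axis, from 0) in the 3 KBP(KK/RR) libraries (red, left) and the 3 wild-type KBP libraries (blue, right). Points are libraries with their replicate numbers, horizontal lines are means and bars are SD. For Bmp4 the KBP(KK/RR) libraries lie at or below 45.5 CPM and the wild-type KBP libraries at or above 53.1 CPM, and for Id3 the KBP(KK/RR) libraries all lie above those of wild-type KBP.

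The ligand gene Bmp4 (ENSMUSG00000021835.15, chromosome 14, 46383520 to 46390669, minus strand, GRCm38) encodes a secreted growth factor that dimerizes and is bound by receptors such as BMPR1A and BMPR2. It measured 43.1, 45.5 and 42.9 CPM in KBP(KK/RR) replicates 4, 5 and 6, against 53.1, 55.6 and 57.9 CPM in wild-type KBP replicates 1, 2 and 3. Every KBP(KK/RR) library was below every wild-type KBP library, and the gap between the nearest libraries was larger than the range within either group. The means were 43.8 ± 1.46 CPM in KBP(KK/RR) cells and 55.5 ± 2.42 CPM in wild-type KBP cells (SD, n = 3 each). The log2 fold change was -0.34 (SE 0.05, 95% interval -0.45 to -0.24, edgeR adjusted p = 4.27e-04), which placed Bmp4 at rank 22 by p among 14340 tested genes. The values rest on 1115 to 1784 counts per library. Gm15217, a gene on the opposite strand, shares 89 exon bases with Bmp4 and had 7, 2 and 2 counts in KBP(KK/RR) libraries, against 0, 2 and 3 in wild-type KBP libraries. The strand setting of the counting is not given in the sources used here, so reads of either strand in that stretch cannot be told apart. In bulk RNA, fewer cells that express a gene and less of its RNA per cell cannot be told apart either.

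Genes of primitive endoderm, a cell type that ES cultures can hold, had a lower summed level in KBP(KK/RR) libraries, as Bmp4 did. Of 12 marker genes listed for it, 11 were tested, 3 fell (Pdgfra, Col4a1 and Col4a2) and 0 rose in edgeR, where 2.07% of all tested genes fell. An unadjusted p under 0.05 was reached by 7 of the 11 genes, beside 18.6% of all, and 1 of these 7, Hnf4a, was on the higher side. In DESeq2, 2 were called of 4 with an adjusted p. The summed level of the 12 genes ran from 289 to 343 CPM in KBP(KK/RR) libraries and from 366 to 448 CPM in wild-type KBP libraries. Most of that sum came from 3 basement membrane genes: Lama1, which was not called, averaged 161 CPM in KBP(KK/RR) cells and 227 CPM in wild-type KBP cells, Col4a1 92.9 CPM in KBP(KK/RR) cells and 111 CPM in wild-type KBP cells, and Col4a2 37.6 CPM in KBP(KK/RR) cells and 43.7 CPM in wild-type KBP cells. Sox7 was also lower without overlap, at 2.24 CPM in KBP(KK/RR) cells and 3.06 CPM in wild-type KBP cells (edgeR adjusted p = 0.0949). So was Cubn, at 2.16 CPM in KBP(KK/RR) cells and 4.57 CPM in wild-type KBP cells (0.199). Of the 11 tested genes, 2 had a positive log2 fold change. Hnf4a lay on that other side, at 0.736 CPM in KBP(KK/RR) cells and 0.355 CPM in wild-type KBP cells, without overlap of the groups (log2 fold change 1.01, edgeR adjusted p = 0.0840). The defining factors Gata4, Gata6 and Sox17 were low in both groups, at means of 4.05, 1.16 and 0.517 CPM in KBP(KK/RR) cells and 4.62, 1.31 and 0.509 CPM in wild-type KBP cells. Mesoderm genes summed to 16.8 to 18.1 CPM in KBP(KK/RR) libraries and 14.0 to 16.4 CPM in wild-type KBP libraries, with T the gene that rose among 7 tested and 0 that fell. Trophectoderm genes summed to 105 to 108 CPM in KBP(KK/RR) libraries and 93.8 to 103 CPM in wild-type KBP libraries, with Tfap2c the gene that rose among 9 tested and 0 that fell. The difference between these sums lay mostly in Tfap2c, at 44.2 CPM in KBP(KK/RR) cells and 35.1 CPM in wild-type KBP cells. Krt8 averaged 33.5 CPM in KBP(KK/RR) cells and 33.6 CPM in wild-type KBP cells. Krt18 was lower without overlap, at 13.1 CPM in KBP(KK/RR) cells and 14.4 CPM in wild-type KBP cells, and was not called. Of the 9 tested genes, 7 had a positive log2 fold change. Fibroblast genes summed to 61.0 to 63.4 CPM in KBP(KK/RR) libraries and 53.5 to 60.1 CPM in wild-type KBP libraries, with Tagln the gene that rose among 8 tested and 0 that fell. The difference between these sums lay mostly in Tagln, at 33.1 CPM in KBP(KK/RR) cells and 28.2 CPM in wild-type KBP cells. Of the fibroblast matrix genes, Col1a1 averaged 8.22 CPM in KBP(KK/RR) cells and 9.34 CPM in wild-type KBP cells. Col1a2 averaged 1.63 CPM in KBP(KK/RR) cells and 1.58 CPM in wild-type KBP cells. Col3a1 was higher without overlap, at 0.927 CPM in KBP(KK/RR) cells and 0.686 CPM in wild-type KBP cells, and was not called (edgeR adjusted p = 0.378). Lum had a total count of 1 over all libraries. Summed levels of ES cell and neural genes overlapped between groups, with Tfcp2l1 the gene that fell among 8 tested ES cell genes and Ncam1 among 6 neural ones, and 0 that rose. Of the 8 ES cell genes 4 had an unadjusted p under 0.05, beside 18.6% of all tested genes. Nanog was on the higher and Esrrb, Klf4 and Tfcp2l1 on the lower side in KBP(KK/RR) cells. The groups did not overlap for 5, beside 22.4% of all tested genes, so the sum joins differences of opposite sign. The single calls in the mesoderm, trophectoderm, fibroblast, ES cell and neural lists stand beside 1.05% of all tested genes called higher and 2.07% called lower. The part of these cell types in the Bmp4 and Id3 results was not tested.

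The sequences upstream of Bmp4 and of Chrd, the gene for the BMP-binding protein chordin that also fell, are shown because both transcripts fell, with like fold changes. Each run is the 250 bases before the RefSeq start on GRCm38.p6, read 5′ to 3′ on the gene's strand. Capitals mark matches to CANNTG or to GGCGCC, a core of sites bound by SMAD1 and SMAD5. CANNTG is the general form of the E-box bound by basic helix-loop-helix factors, only some of which ID proteins hold back.
Bmp4 (chr14:46390670-46390919, minus strand): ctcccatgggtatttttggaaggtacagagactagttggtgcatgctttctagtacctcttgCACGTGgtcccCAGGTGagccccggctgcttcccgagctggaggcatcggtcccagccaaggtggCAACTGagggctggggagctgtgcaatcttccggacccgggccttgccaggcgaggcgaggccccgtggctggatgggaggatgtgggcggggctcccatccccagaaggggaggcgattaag
Chrd (chr16:20732877-20733126, plus strand): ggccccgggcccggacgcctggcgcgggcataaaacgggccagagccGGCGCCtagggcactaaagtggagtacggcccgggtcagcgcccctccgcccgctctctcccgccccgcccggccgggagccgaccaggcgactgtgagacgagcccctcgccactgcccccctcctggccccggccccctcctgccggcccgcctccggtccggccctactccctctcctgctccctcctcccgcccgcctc
The Bmp4 window held 3 CANNTG matches and no GGCGCC, and the Chrd window held 1 GGCGCC and no CANNTG. Neither held CAGAC or its reverse complement GTCTG, a short SMAD4-binding sequence. Of all 32851 RefSeq windows of the same length, 66.2% held CANNTG, 9.59% held GGCGCC and 42.2% held CAGAC on either strand (the first pair of motifs reads the same on both strands). The RefSeq table matched 9 of the 10 members, all but Id1, with 11 windows, 3 of them for Smad5. GGCGCC lay in 5 of these windows, those of Bmpr1a, Bmpr2, Id2 and Id4 and 1 of Smad5, CANNTG in 4 and CAGAC in 2. The GC content of the 11 windows ran from 60.0% for 1 of Smad5 to 78.8% for Bmpr1a. The shares over all RefSeq windows were not matched for GC content, so they do not test the members. The window of Id3 held 2 CAGAC matches and lay entirely within an exon of Id3 in GENCODE M21, as 7 of the 11 windows did at least in part, since the annotations place the starts differently. These matches describe the letters and do not show binding.

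The type I receptor gene Bmpr1a (chromosome 14, 34410734 to 34503341, minus strand) was the member with the most counts. It measured 113, 97.7 and 99.5 CPM in KBP(KK/RR) libraries, against 106, 107 and 109 CPM in wild-type KBP libraries. The wild-type KBP values lay between the highest and lowest KBP(KK/RR) values, with replicate 4 on top. The log2 fold change was -0.05 (SE 0.05, 95% interval -0.16 to 0.05, edgeR adjusted p = 0.609). The type II receptor gene Bmpr2 (chromosome 1, 59763400 to 59879014, plus strand) measured 15.8, 12.5 and 11.4 CPM in KBP(KK/RR) libraries, against 13.6, 16.8 and 16.1 CPM in wild-type KBP libraries. KBP(KK/RR) replicate 4 lay among the wild-type KBP values and the other KBP(KK/RR) libraries below them. The log2 fold change was -0.23 (SE 0.12, 95% interval -0.50 to 0.05, edgeR adjusted p = 0.375). Without KBP(KK/RR) replicate 4, Bmpr2 was called lower, with a log2 fold change of -0.38 (edgeR adjusted p = 0.0145), and after correction for a trend with transcript length and GC its log2 fold change was -0.10 (0.470). GENCODE M21 gives Bmpr2 the longest union of exons of the 10 genes, 17983 bases. Leaving out the same library gave Bmpr1a a log2 fold change of -0.12 (0.0988). Bmpr1a shares 290 exon bases with the antisense gene Gm17110, Smad5 100 with Gm27301, and Id4 82 and 171 with A330033J07Rik and Gm49291, none of which has a row in the count table.

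The receptor-activated SMAD genes did not pass the test. Smad1 (chromosome 8, 79338395 to 79399518, minus strand) measured 17.4, 15.4 and 19.0 CPM in KBP(KK/RR) libraries, against 18.6, 18.1 and 18.6 CPM in wild-type KBP libraries. The KBP(KK/RR) libraries spread on both sides of the wild-type KBP ones, which lay within 1 CPM of each other. Smad5 (chromosome 13, 56703010 to 56742377, plus strand) measured 70.2, 62.0 and 62.3 CPM in KBP(KK/RR) libraries, against 64.2, 70.7 and 68.2 CPM in wild-type KBP libraries, and again KBP(KK/RR) replicate 4 lay with the wild-type KBP values. The log2 fold changes were -0.09 for Smad1 (95% interval -0.24 to 0.06) and -0.06 for Smad5 (-0.17 to 0.05), with edgeR adjusted p of 0.552 and 0.566. Per length of exon, Smad1 made up 24.0 ± 2.23% of the summed Smad1 and Smad5 level in KBP(KK/RR) cells and 24.4 ± 1.16% in wild-type KBP cells (SD, n = 3 each).

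Smad6 (chromosome 9, 63953076 to 64022059, minus strand) encodes an inhibitory SMAD that is itself a BMP target and blocks signalling at the receptor and at SMAD1. It measured 4.07, 4.29 and 4.41 CPM in KBP(KK/RR) libraries, against 3.45, 3.21 and 3.88 CPM in wild-type KBP libraries. The groups did not overlap, but the nearest libraries lay closer together than the wild-type KBP libraries did among themselves. The log2 fold change was 0.29 (SE 0.12, 95% interval 0.03 to 0.54), of the size seen for Id3, with an unadjusted p of 0.0281 and an edgeR adjusted p = 0.207. Smad6 had 90 to 131 counts per library, and counting alone gives a coefficient of variation of 10.5% at the lowest of these.

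Among the Id genes, Id3 rose and Id1, Id2 and Id4 did not pass the test. Id3 (ENSMUSG00000007872.3, chromosome 4, 136143497 to 136145755, plus strand, GRCm38) measured 12.7, 13.9 and 14.2 CPM in KBP(KK/RR) libraries, against 11.4, 10.9 and 11.5 CPM in wild-type KBP libraries. The lowest KBP(KK/RR) library lay above the highest wild-type KBP library. The means were 13.6 ± 0.778 CPM in KBP(KK/RR) cells and 11.3 ± 0.350 CPM in wild-type KBP cells (SD, n = 3 each). The log2 fold change was 0.27 (SE 0.08, 95% interval 0.12 to 0.43, edgeR adjusted p = 0.0472). This call lay close to the threshold: it was lost without KBP(KK/RR) replicate 5 (adjusted p = 0.118) or 6 (0.221), or wild-type KBP replicate 1 (0.0774), 2 (0.202) or 3 (0.0784), and in DESeq2 (0.113), limma-voom (0.0536) and limma on the authors' normalized values (0.0556), while the log2 fold change stayed between 0.24 and 0.32.

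Id1 (chromosome 2, 152736251 to 152737410, plus strand), the most abundant member per length, measured 45.5, 46.7 and 51.4 CPM in KBP(KK/RR) libraries, against 51.2, 51.7 and 55.1 CPM in wild-type KBP libraries. KBP(KK/RR) replicate 6 lay above wild-type KBP replicate 1, so the groups overlapped. The log2 fold change was -0.14 (SE 0.05, 95% interval -0.25 to -0.03), with an unadjusted p of 0.0183 and an edgeR adjusted p = 0.172. After the same correction for length and GC, Id1 was called lower at a log2 fold change of -0.17 (adjusted p = 0.0229). Id2 (chromosome 12, 25093799 to 25097140, minus strand) measured 29.1, 28.9 and 30.1 CPM in KBP(KK/RR) libraries, against 31.8, 29.2 and 32.9 CPM in wild-type KBP libraries, with a log2 fold change of -0.09 (95% interval -0.21 to 0.03, edgeR adjusted p = 0.449). The Id2 groups overlapped through wild-type KBP replicate 2. Id4 (chromosome 13, 48261228 to 48266026, plus strand), which had 44 to 59 counts per library, measured 1.58, 1.80 and 1.99 CPM in KBP(KK/RR) libraries, against 1.68, 1.59 and 1.88 CPM in wild-type KBP libraries. Its log2 fold change was 0.07 with a 95% interval of -0.30 to 0.43 (edgeR adjusted p = 0.875), the lowest counts and the widest interval of the 10 genes.

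Within the Id family, Id3 held a larger and Id1 a smaller share in every KBP(KK/RR) library than in any wild-type KBP library, while the summed level of the family overlapped between groups. The summed level of Id1 to Id4 was 88.9, 91.3 and 97.7 CPM in KBP(KK/RR) libraries, against 96.1, 93.4 and 101 CPM in wild-type KBP libraries. Per length of exon, Id3 made up 12.1%, 12.9% and 12.2% of the family in KBP(KK/RR) libraries, against 9.99%, 9.63% and 9.47% in wild-type KBP libraries. Id1 made up 66.8%, 66.7% and 68.0% in KBP(KK/RR) libraries, against 69.0%, 70.7% and 70.0% in wild-type KBP libraries. For every 100 counts of Id1 there were 28.0, 29.8 and 27.6 counts of Id3 in KBP(KK/RR) libraries, against 22.4, 21.0 and 20.9 in wild-type KBP libraries, a ratio that no scaling between libraries can alter. For every 100 counts of Bmp4 there were 29.5, 30.6 and 33.1 counts of Id3 in KBP(KK/RR) libraries, against 21.6, 19.6 and 19.9 in wild-type KBP libraries. The groups did not overlap in either ratio. For Id3 over Bmp4 this follows from the separation of each gene given above, so it adds no further result. The Id3 share and the ratio to Id1 draw on the same Id3 counts as the call of Id3. The shares of a library sum to a fixed whole, so the smaller Id1 share is tied to the larger Id3 share and is not a separate result. Mean shares in KBP(KK/RR) cells were 67.2% for Id1, 19.7% for Id2 and 12.4% for Id3. In wild-type KBP cells they were 69.9%, 19.7% and 9.70%. No test was run on these ratios, since the genes were picked with their values known.

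**Figure D2:**
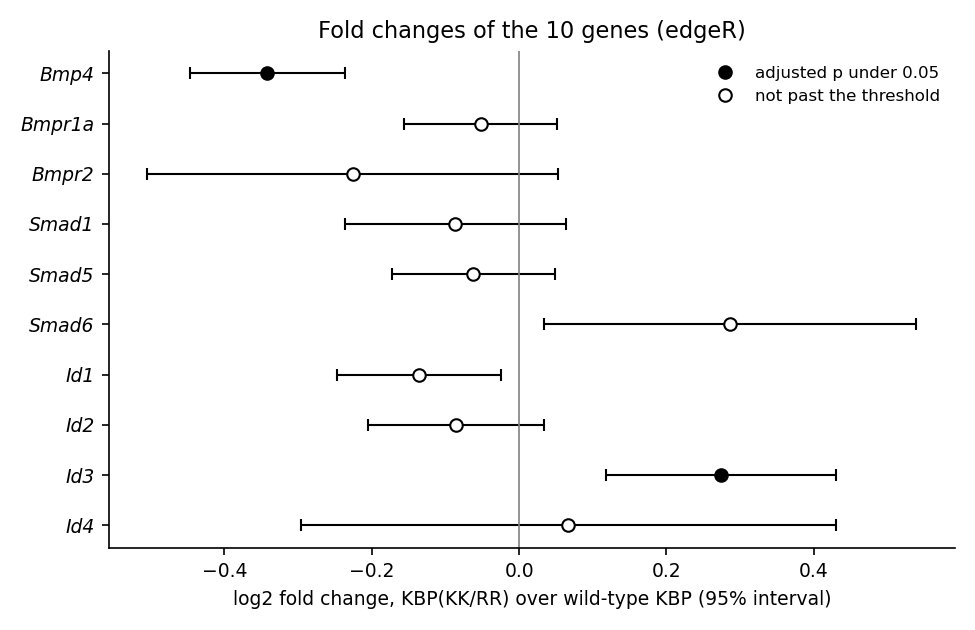
Log2 fold change of each gene, KBP(KK/RR) over wild-type KBP (x axis), with its 95% interval from the edgeR fit. Filled points are past an adjusted p of 0.05 (Bmp4 at -0.34 and Id3 at 0.27), open points are not. The widest intervals belong to Id4, Bmpr2 and Smad6.

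Compared per length (CPM per kilobase of union exon length, RPKM), the levels followed the same order in all 6 libraries. Id1 came first at 41.3 ± 2.70 RPKM in KBP(KK/RR) cells and 45.4 ± 1.83 RPKM in wild-type KBP cells. Bmp4 followed at 19.5 ± 0.650 RPKM in KBP(KK/RR) cells and 24.7 ± 1.07 RPKM in wild-type KBP cells, then Bmpr1a at 16.3 ± 1.34 RPKM in KBP(KK/RR) cells and 16.9 ± 0.265 RPKM in wild-type KBP cells (SD, n = 3 each). Below these came Id2, Smad5, Id3, Smad1, Smad6, Bmpr2 and, last, Id4 at 0.464 RPKM in KBP(KK/RR) cells and 0.446 RPKM in wild-type KBP cells. The ranges of neighbouring genes did not overlap within either group. The closest neighbours were Smad5 and Id3 in KBP(KK/RR) cells, with a ratio of means of 1.15, against 1.45 in wild-type KBP cells. Levels between genes depend on the exon length used, and with the longest transcript in its place Id3 came before Smad5 in KBP(KK/RR) cells.

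**Figure D3:**
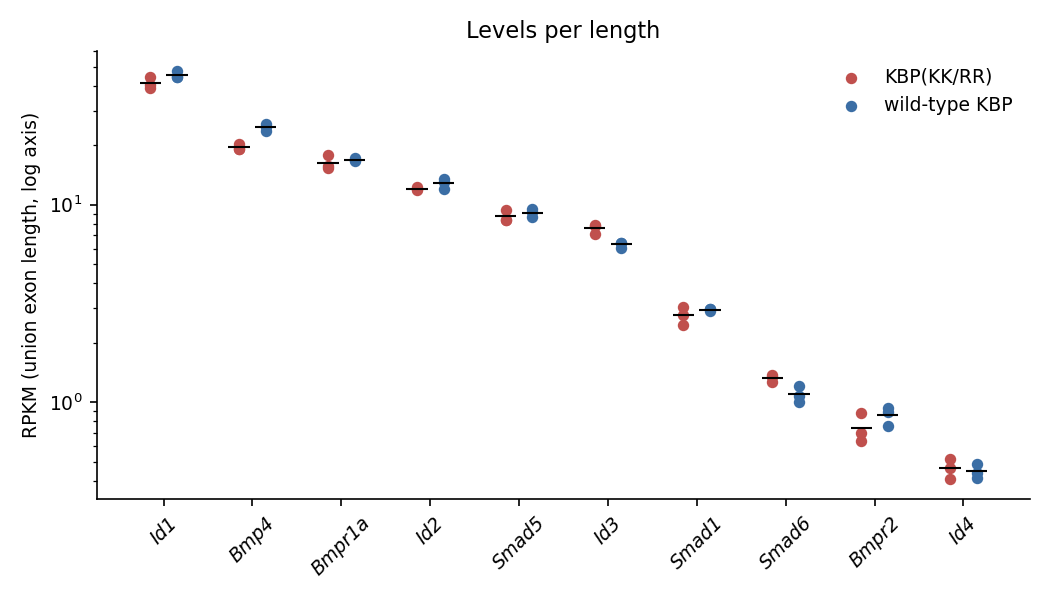
Level per length (RPKM on union exon length, log y axis) of the 10 genes, ordered by their mean in KBP(KK/RR) cells. Red points (left) are the 3 KBP(KK/RR) libraries and blue points (right) the 3 wild-type KBP libraries, with lines at the means. The genes run from Id1 at 41.3 RPKM to Id4 at 0.464 RPKM in KBP(KK/RR) cells, with the KBP(KK/RR) libraries below those of wild-type KBP for Bmp4 and above them for Id3 and Smad6.

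The rest of the pathway was examined through lists of 107 other genes, of which 81 were tested, 0 rose and 3 fell in edgeR, and 16 had an unadjusted p under 0.05. These counts are near the shares over all tested genes, of which 3.12% were called and 18.6% had an unadjusted p under 0.05, and the calls that follow describe single genes, not the pathway. The 3 were the secreted BMP-binding protein gene Chrd, the gene of the SMAD-binding zinc finger protein Zfp423 and the T-box gene Tbx3. Of 14 tested genes of secreted binding proteins and processing proteases, Chrd fell and 0 rose. Chrd measured 8.20, 8.53 and 7.74 CPM in KBP(KK/RR) libraries, against 9.91, 10.4 and 10.6 CPM in wild-type KBP libraries. The groups did not overlap, and the log2 fold change was -0.34 (SE 0.08, adjusted p = 0.0271 in edgeR). The median log2 fold change of these 14 genes was -0.21, and noggin (Nog), another BMP antagonist, measured 0.832 ± 0.233 CPM in KBP(KK/RR) cells and 0.754 ± 0.240 CPM in wild-type KBP cells. Chrd missed the threshold in DESeq2 (adjusted p = 0.0678) and on omission of KBP(KK/RR) replicate 6 (0.141) or wild-type KBP replicate 2 (0.112) or 3 (0.0720).

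Of 24 tested SMADs and SMAD regulators, Zfp423 fell and 0 rose. Zfp423 measured 106, 106 and 100 CPM in KBP(KK/RR) libraries, against 115, 112 and 126 CPM in wild-type KBP libraries (log2 fold change -0.18, SE 0.05, edgeR adjusted p = 0.0400). Wild-type KBP replicate 3 was the highest library, and without it the log2 fold change was -0.13 (0.179). It also missed the threshold on omission of KBP(KK/RR) replicate 5 (0.0781) or 6 (0.230) or wild-type KBP replicate 1 (0.0560), in DESeq2 (0.0532), with upper-quartile scaling (0.0619) and with a filter of at least 1 CPM in at least 3 libraries (0.0508). Smad4, the shared partner SMAD, had a log2 fold change of 0.02 (0.858) and the inhibitory Smad7 of 0.02 (0.846), whereas Smad9, the third receptor-activated SMAD of the pathway, measured 0.367 CPM in KBP(KK/RR) cells and 0.412 CPM in wild-type KBP cells.

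Of 15 tested genes reported to respond to BMP, Tbx3 fell and 0 rose. Tbx3 encodes a transcription factor of naive ES cells and measured 140, 138 and 145 CPM in KBP(KK/RR) libraries, against 161, 159 and 156 CPM in wild-type KBP libraries (log2 fold change -0.17, SE 0.04, edgeR adjusted p = 0.0221). The groups did not overlap, Tbx3 was also the pathway gene called by DESeq2, and it missed the threshold on omission of KBP(KK/RR) replicate 5 (0.0794) or 6 (0.0543) or wild-type KBP replicate 1 (0.0665) or 2 (0.124). The phosphatase gene Dusp9, through which BMP limits ERK activity in mouse ES cells, measured 159 ± 2.45 CPM in KBP(KK/RR) cells and 164 ± 5.98 CPM in wild-type KBP cells (log2 fold change -0.05, edgeR adjusted p = 0.535). Dusp9 was named after its values were seen, as were Nog, Smad4, Smad7 and Smad9 above and the E protein genes Tcf3 and Tcf12 below. With no filter on low counts 5 of the 107 genes were called, after the length and GC correction 6 were, and on omission of KBP(KK/RR) replicate 4 again 5. Calls over all genes rose at these settings too, to 966 of 19060, 737 of 14340 and 767 of 14316 tested genes, against 448 of 14340. DESeq2 called 1 of the 107 genes but computed an adjusted p for only part of them. It did so for 5 secreted binding protein and protease genes, 22 SMADs and regulators and 5 genes reported to respond to BMP. The numbers for the other lists are given below. Of all genes with an adjusted p, DESeq2 called 3.1%. On omission of each other library, edgeR called 0 to 1 of the 107 genes.

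The lists of other ligands, other receptors and ID partner factors gave no call in edgeR, and their counts at an unadjusted p under 0.05 stand beside 18.6% of all tested genes. Of 7 tested ligand genes 0 had an unadjusted p under 0.05, and the smallest p was that of Gdf3, at 183 ± 6.30 CPM in KBP(KK/RR) cells and 194 ± 8.42 CPM in wild-type KBP cells (log2 fold change -0.08, edgeR adjusted p = 0.289). Of 10 receptor and co-receptor genes 3 had one, with the type II receptor gene Acvr2b at 16.0 ± 1.51 CPM in KBP(KK/RR) cells and 18.4 ± 1.24 CPM in wild-type KBP cells (log2 fold change -0.20, edgeR adjusted p = 0.142). Of 11 E proteins and tissue basic helix-loop-helix genes 2 had one, with Tcf4 at 52.9 ± 2.94 CPM in KBP(KK/RR) cells and 58.6 ± 2.18 CPM in wild-type KBP cells (log2 fold change -0.15, edgeR adjusted p = 0.116). The other E protein genes, Tcf3 and Tcf12, had log2 fold changes of -0.01 each. In DESeq2 an adjusted p was computed for 1, 6 and 5 genes of these lists, and 0 were called.

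**Figure D4:**
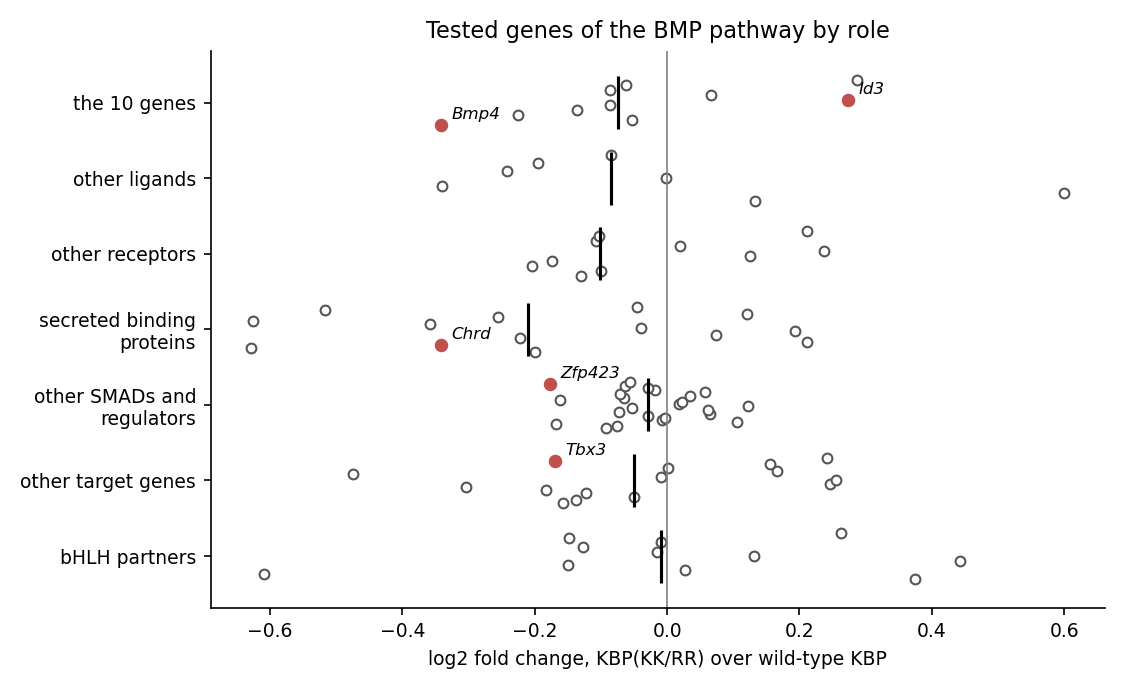
Log2 fold change, KBP(KK/RR) over wild-type KBP (x axis), of every tested gene of the pathway by role (rows). Each point is a gene, red where its edgeR adjusted p is under 0.05 and open otherwise, and vertical lines are medians. The 5 red points are Bmp4, Chrd, Zfp423 and Tbx3 to the left of 0 and Id3 to the right.

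The genes whose profile over the 6 libraries was nearest to that of Bmp4, among 10782 candidates whose log2 CPM averaged 2 or more, were Itga5, Chrd, Atp2a3, Islr2 and Tgfbi. Their root mean square difference from the centred log2 CPM of Bmp4 was 0.02 for Itga5 and Chrd and 0.03 for the other 3. Itga5, a fibronectin receptor subunit, averaged 121 ± 4.99 CPM in KBP(KK/RR) cells and 150 ± 6.49 CPM in wild-type KBP cells (SD, n = 3 each). The log2 fold changes of the 5 genes ran from -0.35 for Islr2 to -0.30 for Atp2a3 and Itga5. The profiles share libraries and the difference between groups, and these genes were picked for that likeness.

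The Bmp4 result was the one that kept its call in each of the 17 alternatives tried, including each omission of a library, with log2 fold changes from -0.38 to -0.31 and adjusted p from 4.60e-08 to 0.0118. Among these, the looser threshold of 0.1 and the recovered reads, which equalled the raw counts, repeat the main fit and could not lose the call. The extremes were -0.38 after the length and GC correction and -0.31 on omission of wild-type KBP replicate 3. Smad6 kept a positive log2 fold change, from 0.22 to 0.36, in the 16 alternatives that gave it an adjusted p and was called in none of them, the lowest adjusted p being 0.0917.

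**Figure D5:**
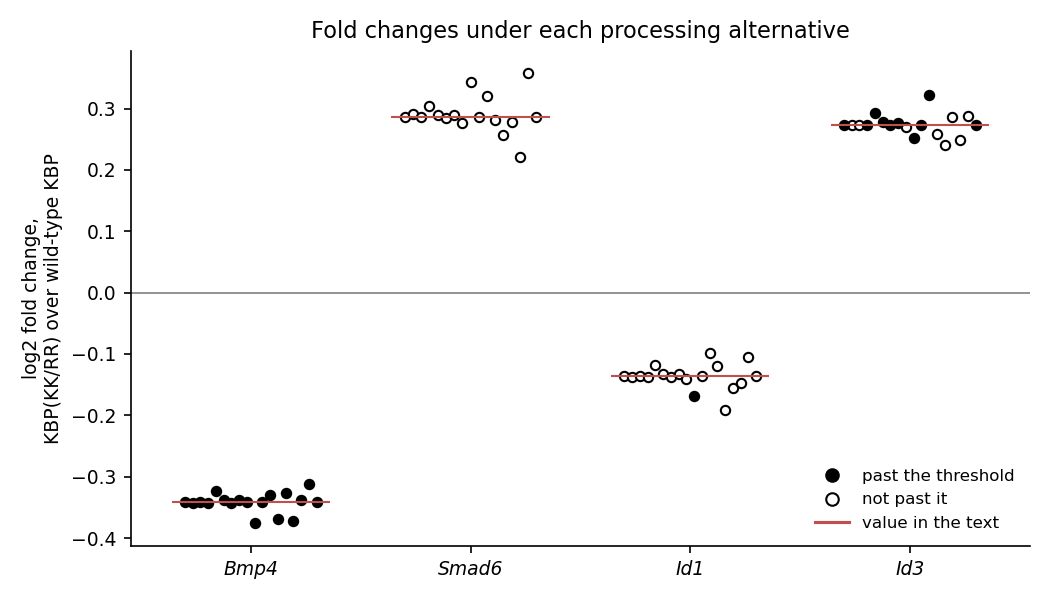
Log2 fold change, KBP(KK/RR) over wild-type KBP (y axis), of Bmp4, Smad6, Id1 and Id3 under the processing used here and under each alternative (points). Filled points are past the adjusted p threshold, open ones are not, and red lines mark the values given in the text. All Bmp4 points are filled, from -0.38 to -0.31, the Id3 points are a mixture between 0.24 and 0.32, and 1 Id1 point is filled.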

How the data were processed

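RiboZero removed ribosomal RNA and ScriptSeq v2 was used to build the 6 libraries, per the labels' protocols. The submitters' processing notes name the builds mm10 and GRCm38 and the tools bcl2fastq, TopHat, HTSeq and DESeq2; for versions, annotation, strand setting and filters the entry is not given in the sources used here. One deposited table holds raw counts by gene symbol, and the other a signal that the authors made, as its values show, by scaling the counts of a library by a single factor. With that factor removed, 100% of values above 0 came out whole within 0.01, 0 differed from the raw counts, and edgeR on these reads called 448 genes.

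The raw counts were tested as deposited. Of 23420 genes, 4360 had no count and 14340 passed filterByExpr. The comparison used edgeR 4.0.16 in R 4.3.3 (TMM factors, robust quasi-likelihood fit, group as the term), with Benjamini-Hochberg adjustment over all tested genes and a threshold of 0.05. Each log2 fold change is KBP(KK/RR) over wild-type KBP, and SE is the absolute log2 fold change over the square root of F. CPM values use TMM-scaled totals. RPKM uses union exon length from GENCODE M21 (GRCm38). Alternatives used DESeq2 1.42.0 and limma 3.58.1 (pseudocount 1 on the authors' values), other scalings and filters, a length and GC trend removed by splines with 5 degrees of freedom, and each library left out. The fit on recovered reads was chosen after seeing the data. In simulated counts for this comparison over 14340 genes, the test found 43.3% of 67 genes changed 1.2-fold. It found 83.6% of 67 genes changed 1.5-fold and 92.4% of 66 changed 2-fold. Beside these true calls it called 14 unchanged genes, and with nothing changed it called 0. Between replicates of a group the chi-square of the counts over its degrees of freedom was 2.70 to 7.17, above sampling noise for each pair.

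The members and lists were chosen with earlier results of these data known. The rule named all members, the called genes of each pathway list or else the one with the smallest p, the 5 genes nearest to the member with the smallest p, and the KBP gene, Pou5f1, Nanog and Sox2 as checks. Outside it, the genes named from the cell type lists and Nog, Smad4, Smad7, Smad9, Dusp9, Tcf3 and Tcf12 were chosen after their values were seen.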

Additional observations from a re-analysis of the deposited data

How the results depend on the processing

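The direction of each of the 10 genes was kept in every alternative that gave it a value, except that Id4, which was not called, had a log2 fold change from -0.0225 (without KBP(KK/RR) replicate 6) to 0.155 (without replicate 4) when single libraries were left out. The number of the 10 genes called higher was 0 in DESeq2, limma-voom and limma on the authors' values, where 1 gene, Bmp4, was called in all, and it was 0 to 1 when single libraries were left out. The number called lower was 2 with the length and GC trend removed, and 1 to 2 when single libraries were left out, and the total was then 1 to 3. Of the other pathway genes, DESeq2 called 1, the fit with no filter on low counts 5 and the fit with the trend removed 6, and 0 to 5 were called with single libraries left out. Over all genes, DESeq2 called 298, the fit with no filter 966, the fit with the trend removed 737 and a threshold of 0.1 gave 823, against 448. With single libraries left out that number ran from 122 without KBP(KK/RR) replicate 6 to 767 without replicate 4. Leaving out KBP(KK/RR) replicate 5 gave 281, wild-type KBP replicate 2 gave 174 and wild-type KBP replicate 3 gave 277. The causes of these shifts were not tested. The smallest counts were those of Id4 and Smad6, for which counting error was highest. No paired analysis was possible because the replicate numbers of the groups, 1 to 3 and 4 to 6, share none.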
